A study of Sus scrofa domesticus with 150 samples.

Results

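The cholesterol synthesis enzymes described here are 8 genes of the pig: HMGCS1, IDI1, FDFT1, SQLE, LSS, MSMO1, SC5D and DHCR7. They were chosen by name from the deposited table of gene counts, taking the symbol in the name column or, where that was empty, the symbol in the protein match of the gene description. All 8 were found, each as 1 gene of the 30461 in the table. Bulk RNA was sequenced from 150 samples of 6 female domestic pigs of a Yorkshire-mix breed that carried full-thickness, circular excisional wounds on the back. The wounds were covered with Telfa Clear and Tegaderm dressings and were otherwise untreated in every animal, apart from an antibiotic ointment put on biopsy sites. Skin excised at wounding gave 1 day 0 sample per animal (6 samples), and 72 wounds gave 1 biopsy of the wound edge and 1 of the wound center each (72 and 72 samples) on 14 days between day 1 and day 21. Each day and location is called a state below (29 states).

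Mammalian cells build cholesterol from acetyl-CoA by way of mevalonate, isoprenoid units, squalene and lanosterol, and the genes of this route are switched on together by the transcription factor SREBP-2 when the sterol content of cell membranes falls. In skin, keratinocytes make much of their cholesterol locally, because it is one of the main lipids of the permeability barrier of the epidermis. HMGCS1 acts at the start of the route, IDI1 in the isoprenoid part, FDFT1 and SQLE on either side of squalene, LSS closes the sterol rings, and MSMO1, SC5D and DHCR7 turn lanosterol into cholesterol.

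Total counts were 13133379 to 24895572 per sample, and the 8 enzymes had 54 to 10872 counts in a sample. Days 1, 3, 5, 7, 11, 15 and 21 came from animals 1 to 3 and days 2, 4, 6, 9, 13, 16 and 19 from animals 4 to 6, so a difference between 2 days of unlike sets cannot be told apart from a difference between the animals. A state held 6 samples from 2 wounds of each of 3 animals on 10 of the days and 3 samples from 1 wound of each animal on days 15, 16, 19 and 21, and since wounds of 1 animal share that animal, the p-values partly measure the spread between wounds. The presence of keratinocyte RNA in day 0 skin and edge samples was checked with 14 basal and suprabasal keratinocyte markers, such as KRT5 and KRT10. These summed to 32424 to 81880 CPM (counts scaled to a common library total) in the 6 skin samples. In earlier results of these data 7 libraries had stood apart from their replicates. Among them, the day 11 center library of animal 1 (wound C) and the day 3 center library of animal 2 (wound G) held 24302 and 16350 CPM of basal keratinocyte markers, and the day 3 edge library of animal 3 (wound G) held only 242 CPM. The day 1 center library of animal 3 (wound A) is not among the 7. It held 23184 CPM of the 14 keratinocyte markers, against 252 to 738 CPM in the other day 1 center libraries, and stayed in every fit without the 7. Values without the 7 libraries are given for some of the calls that change. In all, 4 calls were lost without them, not all of which are named below.

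Levels of different genes were compared as FPKM, which divides by gene length. In day 0 skin the order of the median FPKM was HMGCS1 (43.5), MSMO1 (37.2), IDI1 (35.6), DHCR7 (34.5), SQLE (33.2), LSS (17), SC5D (15.7) and FDFT1 (8.89), over 6 samples. The ranges of neighbours in this order overlapped except for SC5D (13.9 to 19.5) and FDFT1 (7.25 to 10). FDFT1 has the longest gene model of the 8 in the table (11164 bases), which lowers its FPKM. At the wound edge (72 samples) the order began with IDI1 (48.1), HMGCS1 (47.7) and DHCR7 (35.6). In the wound center (72 samples) it began with IDI1 (28.4), LSS (14.8) and HMGCS1 (13.1), and DHCR7 came last with a median of 5.46, where it had been the fourth in skin and the third at the edge.

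**Figure D1:**
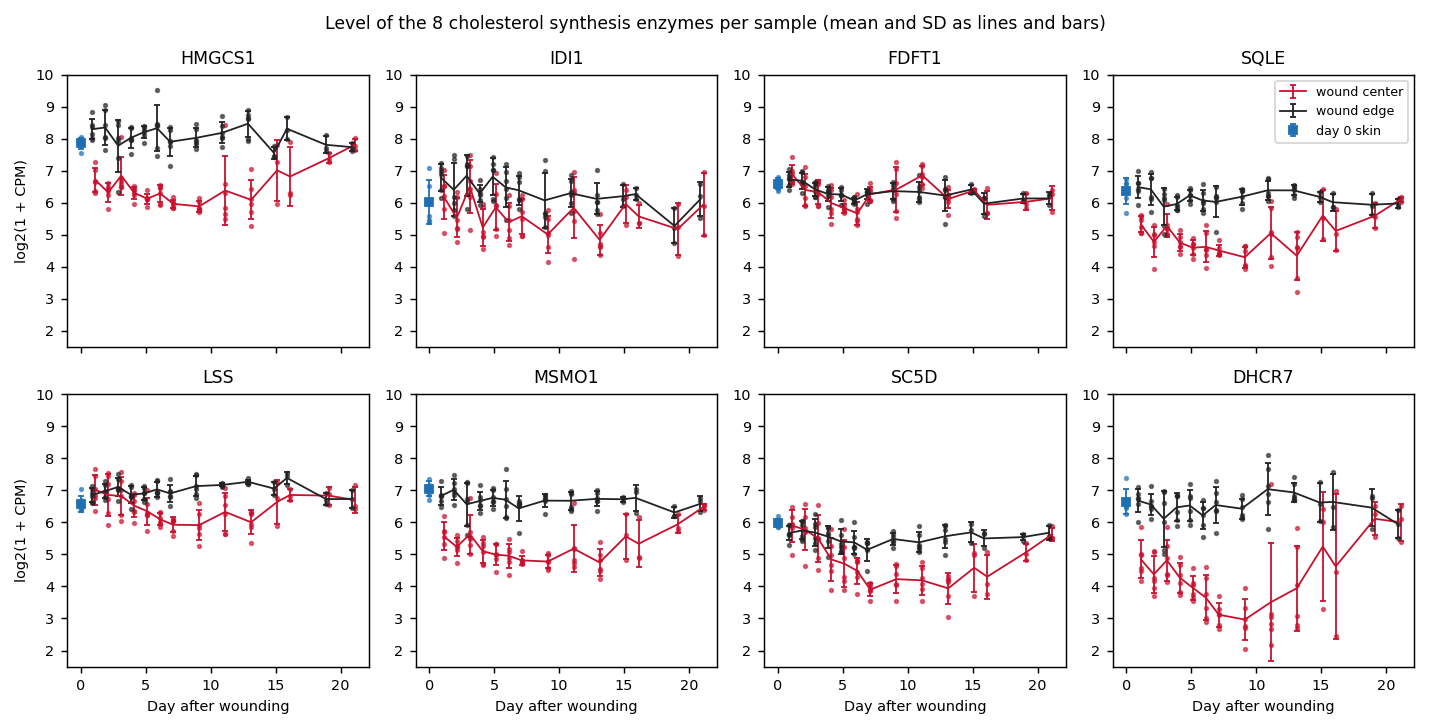
Level of each enzyme as log2(1 + CPM) (vertical axis) against the day after wounding (horizontal axis). Points are samples, lines and bars are the mean and SD of a state (6 or 3 samples), red is the wound center, black the wound edge and blue the day 0 skin. Between days 1 and 13 the center of HMGCS1, SQLE, MSMO1 and DHCR7 lies below the edge, and the lines meet by day 21, while those of FDFT1 lie close together on most days, apart on day 5 (edge higher) and day 11 (center higher).

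The first question was where in the wound the enzymes were expressed, which each wound answers with its own edge and center biopsies. Of the 8 enzymes on 14 days (112 tests), 53 were higher at the edge and 1 was higher in the center at an adjusted p below 0.05 (edgeR quasi-likelihood test on the samples of each day, Benjamini-Hochberg over all genes). Over all genes tested on those days, 12.5% were called higher at the edge and 11.0% higher in the center. HMGCS1, SQLE and MSMO1 were higher at the edge on 9 days (1, 2, 4, 5, 6, 7, 9, 11 and 13), DHCR7 on 8 of these (not day 11), IDI1 on 6 (4, 5, 6, 7, 9 and 13), LSS on 6 (5, 6, 7, 9, 11 and 13), SC5D on 5 (6, 7, 9, 11 and 13) and FDFT1 on day 5 only. By day, 7 of 8 were called higher at the edge on day 5 (20.3% of all genes), day 6 (10.3%), day 7 (20.4%), day 9 (17.3%) and day 13 (16.6%). It was 4 of 8 on day 1 (24.0%) and day 2 (17.8%), and 5 of 8 on day 4 (16.4%) and day 11 (20.6%). With the wound as a block, which pairs the biopsies of each wound, 65 tests passed at the edge (13.6% of all genes). The gained calls were IDI1 on days 1 and 2, SC5D on days 4 and 5, FDFT1 on day 4, DHCR7 on day 11 and, on day 16, every enzyme but FDFT1 and DHCR7.

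On day 3 no enzyme was called, nor was any other of the 14581 genes tested (0.0% in either direction, although 1667 genes had an unadjusted p below 0.05 and DESeq2 called 1 gene). HMGCS1, SQLE, MSMO1 and DHCR7 had an unadjusted p below 0.05 on that day, and DESeq2 called none of the 8. Without the 7 libraries, 2 of which belong to day 3, these 4 were called at the edge, with log2 fold changes of 1.58 ± 0.19 (HMGCS1), 1.03 ± 0.18 (SQLE), 1.49 ± 0.23 (MSMO1) and 1.92 ± 0.34 (DHCR7; SE). Those 2 were the center library with 16350 CPM of basal keratinocyte markers and the edge library with 242 CPM. The 0.0% of all genes above belongs to the fit with all libraries, and the share without the 7 is not given here. On days 15, 16, 19 and 21, with 3 samples a group, none was called by edgeR (7.55%, 4.21%, 0.0% and 0.0684% of all genes were called higher at the edge by edgeR on these days). Of the 32 tests 10 had an unadjusted p below 0.05 and DESeq2 called 5, which were MSMO1 on day 15 and HMGCS1, IDI1, MSMO1 and SC5D on day 16. The shares of all genes by these 2 measures are not given here, so the 10 and the 5 cannot be set against the edgeR shares.

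**Figure D2:**
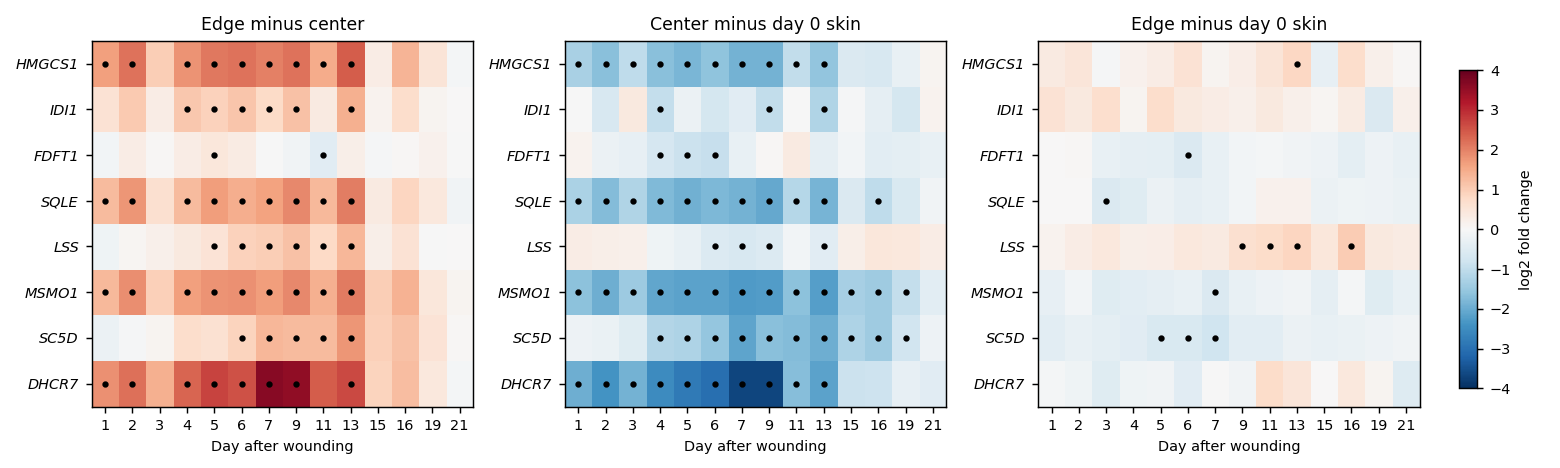
Fitted log2 fold changes (color scale from -4 to 4) of the 8 enzymes on 14 days (1 row per enzyme, 1 column per day) for edge minus center, center minus day 0 skin and edge minus day 0 skin. Black dots mark an adjusted p below 0.05. Blue prevails in the center minus skin panel (64 dots), with pale red in some cells of LSS, FDFT1, IDI1 and HMGCS1, and the edge minus skin panel is pale, with 11 dots.

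Averaged over the 14 days, 7 of the 8 enzymes were higher at the edge (32.5% of all genes were called higher and 33.8% lower). The largest log2 difference was that of DHCR7 (1.98 ± 0.15 SE, 3.95-fold, adjusted p = 2.39e-23), followed by HMGCS1 (1.5 ± 0.09), MSMO1 (1.39 ± 0.07) and SQLE (1.18 ± 0.07). SC5D (0.74 ± 0.08), IDI1 (0.69 ± 0.11) and LSS (0.51 ± 0.06) differed less. FDFT1 did not pass (0.08 ± 0.06, adjusted p = 0.230). Counted wound by wound, the edge biopsy exceeded the center biopsy in CPM in 68 of 72 wounds for MSMO1 and DHCR7, 67 for SQLE, 66 for HMGCS1, 65 for IDI1, 60 for SC5D, 56 for LSS and 40 for FDFT1. On the 10 days with 6 wounds, every edge sample lay above every center sample in 43 of 80 cases and below in 0, against 10% and 5.66% over all genes with a mean of at least 1 CPM.

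In the next paragraphs the enzymes are taken in pathway order, with CPM values in day 0 skin, on day 13, when the difference between edge and center was at its largest for 6 of the 8 enzymes, and on the last day (day 21).

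HMGCS1, which condenses acetyl-CoA units to HMG-CoA (ENSSSCG00025074014, contig LUXX01052732.1, bases 155704 to 176683, minus strand), had 188 CPM at the lowest, 236 at the median and 265 at the highest in day 0 skin. On day 13 the center samples had 37.5, 65.0 and 130.5 CPM and the edge samples 240.5, 395 and 473 CPM in the same order, so that skin and center did not overlap and neither did center and edge. By day 21 the 3 center samples had 200.2, 216 and 259 CPM, all within the range of skin, and the edge samples, at 197, 209 and 232 CPM, overlapped with them. The log2 difference between edge and center ran from 1.48 on day 11 to 2.41 ± 0.29 on day 13 (5.30-fold, adjusted p = 0.000121) where it was called. Against day 0 skin HMGCS1 fell in the center on all 10 days from 1 to 13, by 0.99 on day 11 and by up to 1.90 on day 9 (3.73-fold lower, adjusted p = 1.36e-08), and it was not called on days 15 to 21 (log2 fold changes -0.64 to 0.12). At the edge 1 of 14 days passed, day 13, with a log2 fold change of 0.82 ± 0.29 (adjusted p = 0.0160).

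IDI1, the isomerase that interconverts the 5-carbon isoprenoid units (ENSSSCG00025069350, contig LUXX01099544.1, bases 1 to 3527, minus strand), varied more between skin samples, with 41.0, 57.3 and 135 CPM at the lowest, median and highest. Its gene model begins at the first base of its contig. On day 13 the center samples spanned 19.5 to 49.7 CPM (median 24.6) and the edge samples 49.6 to 128 CPM (median 63.9), so the ranges just touched. The 3 samples of day 21 were spread widely in the center (30.6, 58.8 and 123 CPM) and at the edge (45.4, 73.6 and 95.1 CPM). Called log2 differences between edge and center ran from 0.77 on day 7 to 1.41 ± 0.26 on day 13 (2.66-fold, adjusted p = 0.00166). On no day of 6 wounds did edge and center separate fully for IDI1, although the edge was the higher in 65 of 72 wounds. Calls on days 5 and 9 were lost without the 7 libraries (adjusted p = 0.0730 and 0.0549), and with the wound as a block days 1, 2 and 16 were added. In the center IDI1 was below skin on days 4, 9 and 13 (log2 fold changes -0.96, -0.98 and -1.19), and the animal as a block raised this to 5 days and added 3 days above skin at the edge (2, 6 and 16).

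FDFT1, squalene synthase, which commits isoprenoids to sterols (ENSSSCG00025027155, contig LUXX01038306.1, bases 292728 to 342059, minus strand), had 81.6, 96.8 and 109.5 CPM at the lowest, median and highest in skin. On day 13 its center (47.8 to 88.3 CPM, median 71.2) and edge (39.5 to 110.2 CPM, median 78.0) overlapped. The day 21 samples did as well, with 51.7, 76.9 and 84.2 CPM in the center and 59.6, 73.1 and 76.4 CPM at the edge. FDFT1 gave the only call toward the center among the 8, on day 11 (log2 fold change -0.45 ± 0.16, adjusted p = 0.0391, 22.9% of all genes called that day), and 1 toward the edge, on day 5 (0.45 ± 0.09, adjusted p = 0.00206). The day 11 call was lost with no filter on low counts, with the wounds of an animal summed, and in 1 fit of all samples. Below skin it was called in the center on days 4, 5 and 6 (-0.67, -0.85 and -0.91) and at the edge on day 6 (-0.57 ± 0.19), where the call was lost with the animal as a block.

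SQLE, squalene epoxidase, a rate-limiting enzyme of the sterol branch (ENSSSCG00025042706, contig LUXX01069263.1, bases 444825 to 475342, plus strand), had 49.8, 91.3 and 106 CPM at the lowest, median and highest in skin. The day 13 center samples had 8.27, 23.2 and 32.8 CPM and the edge samples 70.4, 84.9 and 92.2 CPM, with a gap between the groups. SQLE separated edge from center fully on 9 of the 10 days with 6 wounds, the highest number among the 8 enzymes. On day 21 the center had 64.0, 68.2 and 71.6 CPM and the edge 57.9, 59.4 and 69.2 CPM. Called log2 differences between edge and center ran from 1.26 on day 1 to 2.05 ± 0.29 on day 13 (4.13-fold, adjusted p = 0.000320). In the center SQLE was below skin on 11 days (1 to 13 and 16), most on day 9 (-2.04 ± 0.25, 4.10-fold lower). The single call at the edge, day 3 (-0.57 ± 0.24, adjusted p = 0.0449), was lost without the 7 libraries.

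LSS, lanosterol synthase, which folds the squalene epoxide into the first sterol (ENSSSCG00025020491, contig LUXX01041391.1, bases 1247275 to 1281773, minus strand), had 81.9, 88.0 and 130.3 CPM at the lowest, median and highest in skin. On day 13 the center lay below skin without overlap (39.6, 68.3 and 78.2 CPM) and the edge lay above it without overlap (146, 152 and 166 CPM). On day 21 the center had 83.8, 90.0 and 143 CPM and the edge 85.7, 105 and 128 CPM, which overlapped with each other and with skin. The log2 difference between edge and center was -0.17 ± 0.22 on day 1, was first called on day 5 (0.54 ± 0.17) and reached 1.33 ± 0.15 on day 13 (2.52-fold, adjusted p = 7.89e-05). LSS gave 4 of the 5 calls above skin at the edge, on days 9, 11, 13 and 16 (0.64, 0.73, 0.85 and 1.02). In the center it was below skin on days 6, 7, 9 and 13 (-0.47 to -0.64), of which day 7 was the only one still called with the animal as a block.

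MSMO1, a methylsterol monooxygenase that takes part in the removal of methyl groups from the sterol nucleus (ENSSSCG00025038855, contig LUXX01014140.1, bases 277719 to 296510, minus strand), had 103, 138 and 163 CPM at the lowest, median and highest in skin. In the day 13 center it had 17.8, 25.0 and 41.1 CPM and at the edge 80.5, 105 and 128 CPM, again with a gap. MSMO1 was below skin in the center on 13 of 14 days, more than any other of the 8, most on day 7 (-2.25 ± 0.25, 4.77-fold lower) and least among the called days on day 19 (-0.95 ± 0.30, adjusted p = 0.00840). The remaining day was day 21, when its center had 82.7, 89.5 and 92.7 CPM, all under the lowest skin sample (log2 fold change -0.43 ± 0.30, adjusted p = 0.261), and its edge 78.5, 99.8 and 108 CPM. The difference between edge and center peaked on day 13 (2.08 ± 0.20, 4.22-fold, adjusted p = 4.57e-05). At the edge MSMO1 was called below skin on day 7 (-0.58 ± 0.24, adjusted p = 0.0401).

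SC5D, the sterol desaturase of the penultimate part of the route (ENSSSCG00025015398, contig LUXX01015702.1, bases 4743081 to 4757921, plus strand), had 56.5, 61.5 and 71.8 CPM at the lowest, median and highest in skin, the tightest range of the 8 on the log2 scale (SD 0.13). Its center level on day 1 still overlapped with skin and edge (30.8 to 88.7 CPM, median 60.2). On day 7 it was at 10.7 to 16.1 CPM (median 14.1) and on day 13 at 7.26 to 19.0 CPM (median 16.9), below every edge sample of those days (21.1 to 40.9 CPM and 30.3 to 59.7 CPM). On day 21 the center had 44.3, 44.4 and 57.4 CPM and the edge 44.9, 46.4 and 59.9 CPM. The log2 difference between edge and center was -0.23 on day 1 and -0.04 on day 2, neither called, then 0.90 ± 0.22 on day 6 and 1.76 ± 0.22 on day 13 (3.38-fold, adjusted p = 0.000171). Against skin SC5D was lower in the center on 10 days, from day 4 to day 19, most on day 7 (-2.12 ± 0.26, 4.36-fold lower). It was also called lower at the edge on days 5, 6 and 7 (-0.62, -0.62 and -0.81), of which day 5 was lost with the animal as a block, as was day 19 in the center.

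DHCR7, the reductase that makes cholesterol from 7-dehydrocholesterol, the precursor of vitamin D in skin (ENSSSCG00025062779, contig LUXX01068217.1, bases 848276 to 882327, minus strand), had 76.3, 89.7 and 166 CPM at the lowest, median and highest in skin. Its lowest level was in the day 9 center, with 3.12, 6.37 and 14.5 CPM, while the edge of that day had 67.3, 80.8 and 114 CPM. The day 13 center was uneven, at 5.55 to 55.5 CPM (median 11.4), and the edge at 103 to 170 CPM (median 109.7) was above it in every sample. On day 21 the ranges of center (40.4, 67.6 and 90.8 CPM) and edge (44.7, 60.5 and 83.3 CPM) coincided. The largest differences of any of the 8 enzymes were those of DHCR7 between edge and center on day 7 (3.64 ± 0.28, 12.4-fold, adjusted p = 6.29e-07) and day 9 (3.55 ± 0.33, 11.7-fold, adjusted p = 4.67e-06). On day 11 the difference was 2.41 ± 0.97 (adjusted p = 0.0606), with the center library of animal 1 (wound C) at 7.18 on the log2(1 + CPM) scale and the other 5 between 2.18 and 3.13. Without the 7 libraries, which include this one, the difference was 4.73 ± 0.45 (adjusted p = 3.96e-06), and with the wound as a block 3.88 ± 0.85 (adjusted p = 0.00753). Leaving out the highest center library raises the difference by itself, so the value without the 7 is no separate evidence. Against skin DHCR7 was lower in the center on days 1 to 13, by up to 3.67 ± 0.54 on day 9 (12.8-fold lower), and on no day at the edge was it called.

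Put together, the comparison with day 0 skin called the center lower in 64 of 112 tests (27.5% of all genes over the same states) and higher in 0 (28.2% of all genes; 0 also had an unadjusted p below 0.05 and 0 were called by DESeq2). At the edge 6 of 112 were lower (14.6% of all genes) and 5 higher (19.9% of all genes). These edge counts were unsteady: the lower calls became 3 with no filter on low counts and 17 with only the 2 groups compared in the fit, and the higher calls became 8 with the animal as a block and 10 with only the 2 groups compared. All 28 wound states were set against the same 6 skin samples, so these calls are not independent of each other.

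Whether the difference between edge and center itself changed between days was tested for each gene with 1 F test over the 14 days. It passed for SC5D (adjusted p = 4.67e-06), HMGCS1 (1.18e-05), SQLE (1.58e-05), LSS (1.69e-05), MSMO1 (0.000304) and DHCR7 (0.00152), 6 of 8, against 30.8% of all genes. IDI1 (0.472) and FDFT1 (0.228) did not pass. With the wound as a block both passed (adjusted p = 0.00441 and 0.00151), among 39.7% of all genes.

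Days were then compared within each set of animals, early (days 1 and 3, or 2 and 4), middle (days 5 and 7, or 6 and 9) and late (days 15 and 21, or 16 and 19). In the center, middle against early was lower in 10 of 16 tests (17.9% of all genes) and higher in 0 (14.4%; 0 at an unadjusted p below 0.05). In animals 1 to 3 every enzyme but IDI1 fell, SC5D (-1.34 ± 0.18) and DHCR7 (-1.34 ± 0.35) the most and FDFT1 (-0.47 ± 0.13) the least. In animals 4 to 6 the log2 fold changes of SC5D (-0.89 ± 0.18), DHCR7 (-0.90 ± 0.35) and LSS (-0.57 ± 0.14) passed, and those of HMGCS1 (-0.09), SQLE (-0.16) and MSMO1 (-0.17) did not. The center was higher late than early in 8 of 16 tests (22.3% of all genes) and lower in 0 (23.2%; 0 at an unadjusted p below 0.05), and the 8 were the same 4 enzymes in both sets, HMGCS1 (0.92 and 1.19), SQLE (0.87 and 0.94), MSMO1 (0.67 and 0.83) and DHCR7 (1.26 and 1.87). SC5D was not among them (-0.38 ± 0.22 in both sets, adjusted p = 0.148 and 0.146), nor were LSS, IDI1 and FDFT1. Without replicate 1, which takes 1 wound of animal 1 or animal 4 from each state and leaves days 15 to 21 with 2 animals, 4 tests passed, 3 of them among these 8 (HMGCS1, SQLE and MSMO1 in animals 4 to 6). At the edge none of the 32 tests passed by edgeR. Of all genes there, 7.89% were higher and 3.39% lower in the middle days, and 14.1% higher and 16.8% lower in the late days. A single test of the 32 had an unadjusted p below 0.05, LSS late against early in animals 4 to 6 (0.43 ± 0.17, adjusted p = 0.0547). It was called without the 7 libraries (adjusted p = 0.0458) and with wounds summed (0.0461), and with the animal as a block IDI1 was called lower late in animals 1 to 3 (-0.48 ± 0.19, adjusted p = 0.0342).

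The 3 animals of a late day differed from each other in the center. On day 15 HMGCS1 had 221 CPM in animal 1, 154 in animal 2 and 61.5 in animal 3, and DHCR7 85.2, 62.7 and 8.89 CPM in that order. On day 16 HMGCS1 had 235 CPM in animal 4, 75.2 in animal 5 and 78.7 in animal 6, and DHCR7 123.7, 4.48 and 20.9 CPM. The keratinocyte markers summed to 22420, 18639 and 1601 CPM in the same center samples of day 15 and to 32338, 308 and 5119 CPM in those of day 16, so HMGCS1 and DHCR7 were highest in the sample of each day with the most keratinocyte RNA. IDI1 was highest in animal 1 and then in animal 5, which held the least keratinocyte RNA of its day, with 83.1, 38.4 and 72.0 CPM on day 15 and 40.6, 62.2 and 40.3 CPM on day 16.

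**Figure D3:**
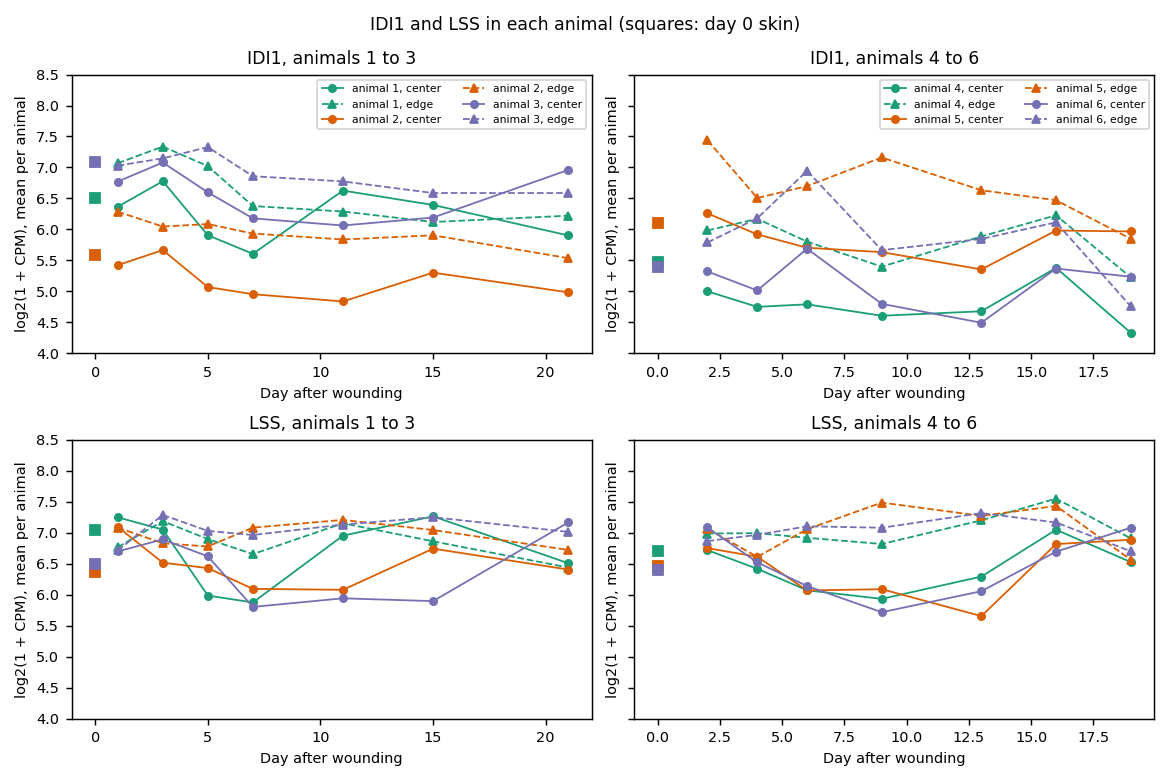
Mean log2(1 + CPM) per animal (vertical axis) against day (horizontal axis) for IDI1 (top) and LSS (bottom), in animals 1 to 3 (left) and 4 to 6 (right), with circles and full lines for the center, triangles and broken lines for the edge and squares for day 0 skin. The IDI1 lines of animal 2 lie lowest in all 14 wound states of its set, whereas the LSS lines of the animals cross.

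A test between animals was added after the data were seen. With state and animal in 1 model, 3 of the 8 enzymes differed between the 6 animals over all states. Of all genes, 38.3% did, which is about the same share. The 3 were IDI1 (adjusted p = 1.09e-23), SQLE (0.00798) and FDFT1 (0.0106). This F test covered differences within and between the sets, which shared only the day 0 state. Leaving out 1 replicate at a time gave 1 to 4 enzymes, 1 of them without replicate 3. IDI1 was lowest in animal 2 in 14 of the 14 wound states of its set and highest in animal 5 in 13 of 14, and the animals' mean deviations from the state means spanned 1.16 (2.24-fold) in animals 1 to 3 and 0.95 (1.94-fold) in animals 4 to 6 on the log2(1 + CPM) scale. For LSS the same spans were 0.05 and 0.01. Day 0 skin showed the same order of IDI1 in animals 1, 2 and 3, with 90.3, 47.0 and 135 CPM. Animals 4, 5 and 6 had 43.2, 67.6 and 41.0 CPM there. Animal 5 was again the highest, but animals 4 and 6 stood in the reverse order of their mean deviations (-0.39 and -0.18). The sets themselves were compared in the 6 day 0 samples, where 0 of 15000 genes passed (0.0%; 550 had an unadjusted p below 0.05) and none of the 8 enzymes had an unadjusted p below 0.05, the largest difference being that of IDI1 (0.78 ± 0.39 higher in animals 1 to 3, adjusted p = 0.971).

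Across the 29 state means, Pearson's r between pairs of the 8 enzymes had a median of 0.74 (28 pairs, all above 0), against 0.11 for all pairs of 3521 genes, as a description of points that share libraries and animals. HMGCS1, SQLE, MSMO1 and DHCR7 were correlated with each other at 0.957 or more. FDFT1 was correlated least with the mean of the other 7 (r = 0.25), and SQLE most (0.95). The median was 0.57 among the 14 center states alone (0.12 for all gene pairs) and 0.33 among the 14 edge states (0.18). Within states, after the state mean was removed, it was 0.42 over 150 samples (0.03), and the highest pair was HMGCS1 with MSMO1 (0.87). The state means of the 8 enzymes, each scaled to its own mean and SD over the 29 states, were then averaged. The 13510 named genes with a mean of at least 1 CPM were ranked by r with this average. Those that followed it most closely included ACAT2 (r = 0.97), CYP51A1, RDH11, OCRL, PIP4K2C, PDCD4, EGFR, CHL1 and CSNK1A1 (0.95). ACAT2 and CYP51A1 are enzymes of the same route. SREBF2, which encodes SREBP-2, stood at rank 15 (0.94).

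**Figure D4:**
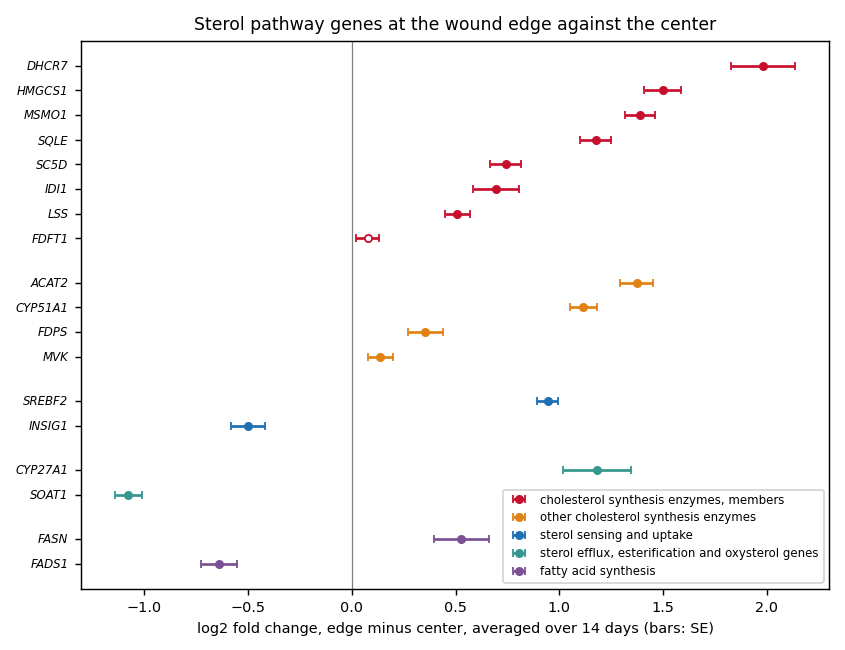
Log2 fold change of edge minus center, averaged over 14 days, with bars of 1 SE (horizontal axis), for the 8 enzymes and the other sterol and fatty acid genes that the text names, grouped by list (vertical axis). Filled points have an adjusted p below 0.05. The other synthesis enzymes shown lie to the right of 0, from 0.14 (MVK) to 1.37 (ACAT2), and CYP27A1 (1.18) and SOAT1 (-1.08) lie on opposite sides.

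The rest of the sterol pathway was read from lists chosen by function. All 11 of 11 other synthesis enzymes found were higher at the edge in the average over days (32.5% of all genes), with a median log2 fold change of 0.65 against -0.01 for all genes. ACAT2, which makes acetoacetyl-CoA, was higher by 1.37 ± 0.08 and MVK, mevalonate kinase, was the lowest (0.14 ± 0.06, adjusted p = 0.0399). In the center ACAT2 was below day 0 skin on 14 of 14 days, while FDPS, farnesyl diphosphate synthase, was above skin on 4 center days and 11 edge days. Of 9 sensing and uptake genes, 6 were higher at the edge and 2 in the center (median 0.24). SREBF2 was the highest (0.94 ± 0.05). INSIG1, the protein that holds SREBP-2 back in the endoplasmic reticulum, was the lowest and was higher in the center (-0.50 ± 0.08, adjusted p = 7.19e-08). The 8 efflux, esterification and oxysterol genes tested gave 2 higher at the edge and 4 higher in the center (median -0.34), between CYP27A1, a sterol hydroxylase (1.18 ± 0.16), and SOAT1, which esterifies cholesterol for storage (-1.08 ± 0.06, 2.11-fold higher in the center). Of 5 fatty acid synthesis genes 2 were higher at the edge and 1 in the center (median 0.08), from FASN (0.53 ± 0.13) to FADS1 (-0.64 ± 0.09). These counts describe the lists and were not tested against other genes.

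**Figure D5:**
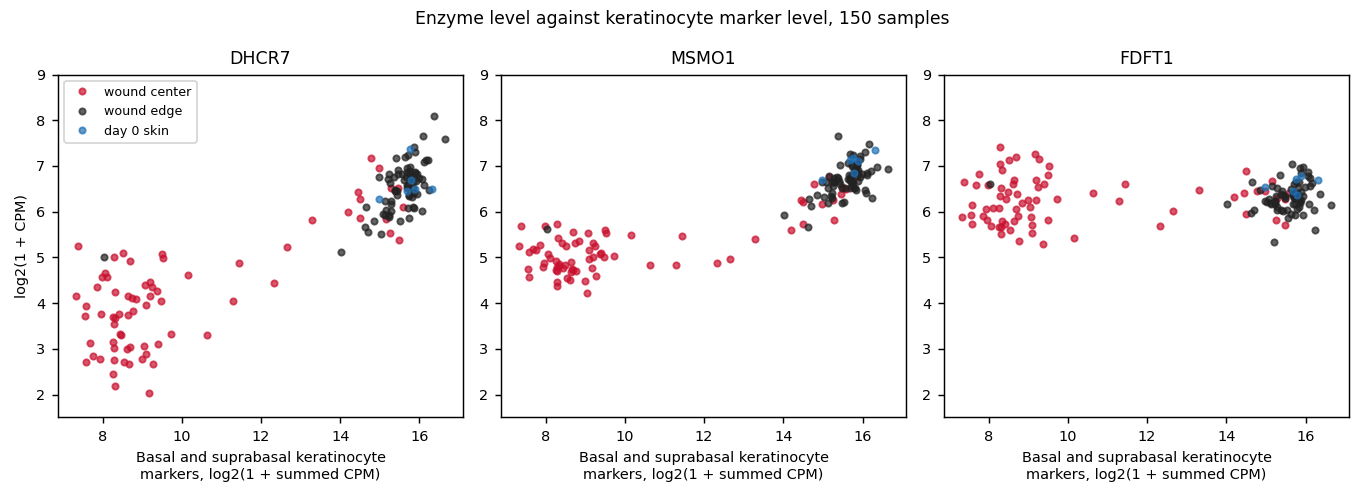
Level of DHCR7, MSMO1 and FDFT1 as log2(1 + CPM) (vertical axis) against the summed level of 14 basal and suprabasal keratinocyte markers as log2(1 + summed CPM) (horizontal axis) in 150 samples, red for center, black for edge and blue for day 0 skin. The DHCR7 and MSMO1 points rise from the center samples on the left to the edge and skin samples on the right, and the FDFT1 points are level.

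Keratinocyte markers moved with the same comparisons. All 6 basal markers and all 8 suprabasal markers were higher at the edge in the average over days, with median log2 fold changes of 4.00 and 4.97. The 14 together summed to a median of 332 CPM in the day 7 center, 470 on day 9, 1515 on day 13 and 45958 on day 21, against 56210 in skin. In the center TP63 was at 0 in 6 of 72 samples, IVL in 1 and DSC1 in 1, and no other of the 14 was at 0. Over the 29 states the suprabasal level had an r of 0.96 with DHCR7, 0.96 with HMGCS1, 0.95 with MSMO1 and SQLE, 0.68 with LSS, 0.65 with SC5D, 0.56 with IDI1 and 0.12 with FDFT1 (29 points from the same libraries). The keratinocyte part of the enzyme differences was not tested. In bulk tissue, fewer cells of a type and less RNA per cell cannot be told apart.

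Other cell type markers moved as well in the average over days. All 6 macrophage markers were higher in the center (median -0.64), and of 9 fibroblast markers 7 were higher in the center and 2 at the edge (median -0.25). Sebaceous gland markers, 2 of 6 of which were higher at the edge and 1 in the center, summed to 17.4 to 107 CPM in skin, 3.54 to 81.7 CPM at the edge and 5.48 to 36.6 CPM in the center, and AWAT2 was at 0 in 69 of 72 center samples and 39 of 72 edge samples. Adipocyte markers (0 higher at the edge, 2 of 8 higher in the center) summed to 124 to 19729 CPM in the center and skeletal muscle markers (0 and 2 of 9) to 1.31 to 67111 CPM there. Neutrophil markers were split, with 3 of 5 higher at the edge (S100A8, S100A9 and S100A12, 0.91 to 1.08) and 1 in the center (CSF3R, -1.52). Hair follicle markers gave 3 of 6 higher at the edge and 0 in the center, and cell cycle genes 0 of 7 in either direction. Their part in the enzyme levels was not tested.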

How the data were processed

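The labels' day and location put the samples into 29 states, within which they were numbered by animal and wound letter. The authors deposited whole-number counts per gene without normalization, from poly-A enriched paired reads, and FPKM values, which match the counts divided by gene length and library total times 1 factor per sample (0.845 to 1.31). The aligner, the counting tool, its use of strand and the genome build were not given in the sources used here, and no enzyme sequence was read. CPM scales each deposited count to a common library total, and levels were taken as log2(1 + CPM) (pseudocount 1). Tests used edgeR 4.0.16 in R 4.3.3 on the deposited counts (quasi-likelihood F test after TMM scaling; filterByExpr kept genes reaching 10 counts in enough samples and 15 in total). P-values were adjusted over all genes tested (Benjamini-Hochberg) and called below 0.05. Edge and center were fitted on the samples of each day, and all other contrasts in 1 fit of all 150 samples. All 8 enzymes passed the filter in every fit. Errors are SE for fold changes. Simulated counts with known changes were run through the fits for edge against center on day 7 and for the day 7 edge against day 0. The F test over days was also run on them. They were drawn without shared wounds or animals, and the other comparisons were not tested in this way.

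The members and gene lists were chosen with earlier results of these data known. The text names the 8 enzymes, the highest and lowest gene of each sterol list, and the 10 genes most like the enzymes by Pearson's r over the state means. Some genes under this rule are not reported here. ACAT2's and FDPS's days, SREBF2's rank and single libraries were chosen once their values were known, and so was the test between animals. TM7SF2 of the lists was not found. INSIG2, ELOVL6 and FADS2 each had more than 1 entry among the genes and were left out, so 71.4% of the fatty acid list was used. CH25H did not pass the filter. The wound block rests on the labels, which give edge and center biopsies the same animal and wound: their deviations from the state means had a mean r of 0.27 over 14081 genes, above 0 in 64 of 72 wounds. No 2 replicates agreed within sampling noise (chi-square per degree of freedom of at least 21.5). Alternatives were library size without TMM, no filter, the wound or animal as a block, no doubted libraries (7), the wounds of an animal summed, DESeq2 1.42.0, other sets of samples in the fit and each replicate number left out. Tables and plots used Python 3.11.15, pandas 2.3.3, numpy 2.4.6 and matplotlib 3.10.9. Wound images and raw reads were not analysed here.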

Additional observations from a re-analysis of the deposited data

Results flagged for a closer look

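In 168 groups of 6 samples (an enzyme in a state), 11 held a sample far from the other 5 by Dixon's ratio (above 0.625), where chance gives about 1 in 20, or 8.4 of 168. Values are on the log2(1 + CPM) scale. In the day 11 center, animal 1 (wound C) stood above the others for HMGCS1 (8.42, others 5.50 to 6.58), MSMO1 (6.60, others 4.59 to 5.18) and DHCR7 (7.18, others 2.18 to 3.13), and its 14 keratinocyte markers summed to 28110 CPM (others 204 to 621). The day 3 center of animal 2 (wound G) was high for HMGCS1 (8.04, others 6.48 to 6.78) and SQLE (5.97, others 4.99 to 5.30), with 16350 CPM of basal keratinocyte markers against 155 to 1361. At the day 7 edge, animal 1 (wound H) was low for 4 enzymes, FDFT1 (5.97, others 6.25 to 6.36), SQLE (5.10, others 6.02 to 6.51), MSMO1 (5.67, others 6.51 to 6.66) and SC5D (4.46, others 5.13 to 5.39), with 9899 CPM of basal keratinocyte markers against 16241 to 26113. Single values apart were MSMO1 in the day 7 center of animal 3, wound H (5.09, others 4.71 to 4.82), with 449 CPM of basal keratinocyte markers against 205 to 325, and at the day 9 edge of animal 6, wound E (6.27, others 6.66 to 6.84). The latter library held 39585 CPM of skeletal muscle markers against 2.04 to 151 and 13483 CPM of basal keratinocyte markers against 16832 to 25225. The part of these markers in the enzyme values was not tested.

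The difference between edge and center itself differed between days (edgeR F test over 14 days, Benjamini-Hochberg adjusted) for SC5D (adjusted p = 4.67e-06), HMGCS1 (1.18e-05), SQLE (1.58e-05), LSS (1.69e-05), MSMO1 (0.000304) and DHCR7 (0.00152). For SC5D and LSS the fitted difference was below 0 on day 1 (-0.23 and -0.17, neither called) and highest on day 13, whereas for DHCR7 it was 1.84 on day 1 and highest on day 7.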

How the results depend on the processing

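Across 14 alternative settings, 155 enzyme results were recomputed, all of them called except the average of FDFT1 over days. Of 1955 recomputed values, 1833 kept their direction and their side of the threshold, 122 kept the direction only and none changed sign. The count of edge over center calls per day (53) was 47 to 53 when 1 replicate number was left out. With the wounds of an animal summed, which leaves 1 sample per animal in a state, 134 results of all kinds kept their call and 13 lost it. The replicate block (the wound, or the animal for contrasts with other days) moved some counts. Calls above skin at the edge went from 5 to 8, and late calls below early at the edge from 0 to 1. The block also changed single calls of each of the 8 enzymes. The 1 call toward the center, FDFT1 on day 11, became 0 with no filter, with wounds summed and in 1 fit of all 150 samples (0 to 1 over left-out replicates). Calls above skin in the center, 0, became 1 without TMM and 2 with wounds summed (0 to 1 over left-out replicates). At the edge the 6 calls below skin became 3 with no filter and 17 with only the 2 groups compared (3 to 5 over left-out replicates, 3 without replicate 3), and the 5 above skin became 10 with only the 2 groups compared (4 to 8 over left-out replicates, 8 without replicate 1). Late against early, the center calls of 0 lower became 2 without TMM and the 8 higher ran from 4 to 9 over left-out replicates. The edge calls of 0 lower became 1 without TMM, and the 0 higher became 1 without the 7 libraries and 1 with wounds summed (0 to 1 over left-out replicates, 1 without replicate 5). Enzymes differing between animals, 3, ran from 1 to 4. The cause of these shifts was not tested. States of 3 samples (days 15 to 21) limit what could be called there.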
